A study of Mus musculus with 6 samples.

Results

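Transforming growth factor beta (TGF-beta) activation and signalling was followed through 10 genes in regulatory T (Treg) cells taken from mouse tumours. They are the integrin chains Itgav and Itgb8, the surface anchor Lrrc32, the convertase Furin, the ligand Tgfb1, the receptors Tgfbr1 and Tgfbr2, the signal transducer Smad3, and the inhibitors Smad7 and Ski. The genes were picked by name, and all 10 were found among the 55450 genes of the deposited table and passed the filter on low values. The tumours were MC38, a transplantable colon carcinoma line of C57BL/6 mice, and the strain is given as C57BL/6 for each sample. One group of 3 libraries came from mice whose Treg cells carry Tim-3, an inhibitory receptor encoded by Havcr2. The other group of 3 came from mice whose Treg cells lack it, which the series calls knockout. The promoter, the deleted exons, the age of the mice and any pooling of animals are not given in the sources used here. No source used here ties the libraries to separate animals, so p-values measure a spread between libraries that may be technical.

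TGF-beta is made as a precursor that furin cuts into a mature cytokine and a propeptide, and the propeptide stays wrapped around the cytokine and keeps it latent. On Treg cells the anchor GARP, the product of Lrrc32, holds this latent complex at the cell surface. The integrin formed by the alpha V chain (Itgav) and the beta 8 chain (Itgb8) binds the propeptide and frees the cytokine, and Treg cells are known to use this integrin to activate TGF-beta. Free TGF-beta joins the receptor chains encoded by Tgfbr2 and Tgfbr1, which phosphorylate SMAD2 and SMAD3. SMAD7 blocks the receptors and SKI holds SMAD target genes off, and both act as brakes on the pathway.

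Short coding stretches of Tgfb1 show what the integrin and the convertase act on. Both were read from the GENCODE M21 transcript of the gene on GRCm38 chromosome 7 (plus strand), which codes for a precursor of 390 residues. Capitals mark codons 244 to 246, arginine, glycine and aspartate, to which alpha V integrins bind, and codons 275 to 278, arginine, histidine, arginine and arginine, after which furin cuts. The first stretch crosses from exon 4 to exon 5 (between 25696995 and 25697168), and the second lies in exon 5 (25697217 to 25697264).
Tgfb1 integrin-binding codons: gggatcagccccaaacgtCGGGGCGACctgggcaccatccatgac
Tgfb1 furin codons: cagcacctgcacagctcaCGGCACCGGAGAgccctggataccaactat

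The promoters of Itgav and Itgb8 are shown because these genes stood lower together in deficient cells. Each sequence, taken from RefSeq on GRCm38.p6, runs from 250 bases before the RefSeq start to 30 after it, 5′ to 3′ on the strand of the gene. The Itgav promoter is at chr2:83724147-83724426 (plus strand) and the Itgb8 promoter at chr12:119238247-119238526 (minus strand). For Itgb8 the GENCODE gene, used for the levels, starts further upstream, at 119238802. By that annotation the whole Itgb8 stretch lies inside the gene and not before it. The RefSeq promoter table held 8 of the 10 genes, the others being Lrrc32 and Smad7.
Itgav promoter: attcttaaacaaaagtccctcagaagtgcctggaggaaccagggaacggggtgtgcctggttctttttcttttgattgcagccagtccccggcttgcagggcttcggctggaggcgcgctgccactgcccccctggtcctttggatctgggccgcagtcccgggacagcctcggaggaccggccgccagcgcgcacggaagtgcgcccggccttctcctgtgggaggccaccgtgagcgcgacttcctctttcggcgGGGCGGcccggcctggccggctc
Itgb8 promoter: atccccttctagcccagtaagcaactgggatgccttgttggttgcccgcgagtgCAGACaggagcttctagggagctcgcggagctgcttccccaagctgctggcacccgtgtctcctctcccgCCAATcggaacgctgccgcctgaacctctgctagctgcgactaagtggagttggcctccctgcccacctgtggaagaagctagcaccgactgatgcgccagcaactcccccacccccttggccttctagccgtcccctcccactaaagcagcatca

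Capitals in the promoters mark motif matches, searched on both strands over 300 bases, of which 50 lie after the start. The motifs were the GC box GGGCGG, the CCAAT box, the cyclic AMP response element TGACGTCA, the AP-1 site TGANTCA, the SMAD-binding core GTCTG and the palindromic SMAD site GTCTAGAC. Itgav held 1 GC box, a match that 35.7% of all 32851 promoters of this length also held. Itgb8 held 1 CCAAT box, as did 37.4% of promoters, and 1 SMAD-binding core, as did 49.6%. Neither window held the cyclic AMP element (1.79% of promoters), the AP-1 site (7.81%) or the palindromic SMAD site (0.213%). No match overlapped another, and a match of letters does not show that a factor binds.

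Levels are given as log2(TPM + 1). TPM takes reads per unit of transcript length and scales them to a total of 1000000 per library. Levels of different genes can therefore be set side by side. Read depth is unknown. A library held 11470 to 12681 genes at 1 TPM or more. The libraries are called sufficient A1, B1 and dated, and deficient C1, D and dated, after marks in the column names. A calendar date, the same in both, appears in 1 column name of each group, and the other 4 names carry none. Havcr2 was at 5.70, 5.64 and 4.49 in sufficient A1, B1 and dated and at 3.54, 4.27 and 2.55 in deficient C1, D and dated, so it was lower in each deficient library but not absent. All 12 Treg and T cell markers, among them Foxp3, Il2ra, Ctla4 and Cd3e, reached 1 TPM in at least 3 libraries, and their summed level ran from 14636 to 17416 TPM in sufficient and from 10087 to 14526 TPM in deficient libraries. Not every marker followed the sum. Foxp3 had means of 5.18 ± 0.35 in sufficient and 5.49 ± 0.06 in deficient libraries (log2(TPM + 1), SD), with overlapping groups. Transcripts of other cell types were present. Those of macrophages were high in sufficient B1 and deficient C1, where Lyz2 stood at 8.94 and 9.08 in log2(TPM + 1). Of 12 macrophage markers 8 reached 1 TPM in at least 3 libraries, with sums of 28.3 to 944 TPM in sufficient and 21.7 to 1382 TPM in deficient libraries, and the highest sums were those of sufficient B1 and deficient C1. Adgre1, Csf1r and Mrc1 were at 0 in deficient D and dated, but most macrophage markers were not. In log2(TPM + 1), Lyz2 stood there at 1.99 and 3.61 and Apoe at 2.20 and 1.59. B cell markers summed to 51.2 to 173 TPM in sufficient and 186 to 243 TPM in deficient libraries, almost all of it Igkc and Cd79b, while Ms4a1 was at 0 throughout. Platelet markers, which matter here because platelets also carry GARP and TGF-beta, summed to 0.49 to 6.33 TPM and 0 to 23.3 TPM, with Gp9 and Treml1 at 0 throughout. The summed dendritic, endothelial and fibroblast, epithelial, CD8 T and NK, and neutrophil markers stayed at 44.6 TPM or less. What part any of these markers' cells had in the results was not tested, beyond the values without the libraries highest in macrophage markers.

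Both chains of the activating integrin stood lower in Tim-3 deficient Treg cells, and both differences passed the test over all genes when the date mark was held fixed, but not without it. Itgav, the alpha V chain (ENSMUSG00000027087.11, GRCm38 chromosome 2, 83724397 to 83806916, plus strand), stood at 8.20, 7.83 and 7.48 in sufficient A1, B1 and dated. It stood at 6.45, 6.83 and 5.98 in deficient C1, D and dated. Every deficient library lay below every sufficient one, and within each group the dated library was the lowest. In linear units the means were 232 ± 57.8 TPM and 87.1 ± 25.1 TPM (SD, n = 3 each). From the log2(TPM + 1) values the log2 fold change was -1.41 ± 0.26 (SE, 95% interval -2.01 to -0.82), which is 2.67-fold lower in TPM + 1. In bulk RNA, fewer cells that express a gene and less RNA per cell cannot be told apart.

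Itgb8, the beta 8 chain (ENSMUSG00000025321.14, chromosome 12, 119158022 to 119238802, minus strand), was far less abundant. It stood at 4.46, 3.78 and 2.42 in sufficient A1, B1 and dated and at 2.27, 2.64 and 1.08 in deficient C1, D and dated. The groups overlapped, since sufficient dated lay below deficient D, but each date class on its own had lower values in deficient libraries. The means were 12.7 ± 8.3 TPM in sufficient and 3.39 ± 2.10 TPM in deficient libraries (SD, n = 3 each). From the log2(TPM + 1) values the log2 fold change was -1.56 ± 0.59 (SE, 95% interval -2.91 to -0.20). That is 2.94-fold lower in TPM + 1, and is not the ratio of the TPM means.

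Without a covariate, neither chain passed over all genes. In limma, with p adjusted by Benjamini-Hochberg over the 12155 genes tested, Itgav had an adjusted p of 0.0961 and Itgb8 one of 0.358. Their unadjusted p-values were 0.000606 and 0.0296, ranks 76 and 1004 of all genes. That fit called 0 of the 10 genes, where 0.206% of all tested genes were called. With the date mark as a block, Itgav (adjusted p = 0.0116) and Itgb8 (adjusted p = 0.0409) passed, and both fell. These were 2 of the 10 genes, beside 1.97% of all genes called in that fit, 0.856% called lower and 1.12% called higher. Havcr2 itself did not pass without the block (adjusted p = 0.211) and passed with it (0.0148). The Itgav difference was -1.37 in the 4 undated libraries and -1.49 between the 2 dated ones, and the Itgb8 difference was -1.66 and -1.34. The call of Itgav with the block was lost without sufficient A1 (adjusted p = 0.09) and without sufficient B1 (0.0518). That of Itgb8 was lost when any of the 4 undated libraries was left out (adjusted p = 0.0679 to 0.171). Both calls were lost in limma without a variance trend (adjusted p = 0.0802 and 0.0849), and that of Itgb8 with a pseudocount of 5 TPM (0.0671). Itgav passed without the block when library medians were made equal (adjusted p = 0.0394) and when both dated libraries were left out (0.0254). Without sufficient B1 and deficient C1, highest in macrophage markers, the fold changes were -1.43 and -1.58, beside -1.41 and -1.56 with all libraries. The limma adjusted p was then 0.55 for Itgav and 0.932 for Itgb8 without the block, and 0.045 and 0.107 with it. That setting keeps 2 libraries per group, so few residual degrees of freedom are left.

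Itgav exceeded Itgb8 in every library. In linear units, where no pseudocount enters, the ratio of Itgav to Itgb8 was 13.97, 17.8 and 40.8 in sufficient A1, B1 and dated and 22.6, 21.5 and 56.1 in deficient C1, D and dated. The groups overlapped, but within each date class the deficient ratios lay above the sufficient ones. The means were 24.2 ± 14.6 in sufficient and 33.4 ± 19.7 in deficient libraries (SD, n = 3 each), and this difference was not tested. The dated library of each group, in which Itgb8 was lowest, had the highest ratio, and deficient dated held Itgb8 at only 1.11 TPM. On the log2(TPM + 1) scale, Itgav minus Itgb8 was 4.18 and 4.19 in deficient C1 and D, above 3.74 and 4.05 in sufficient A1 and B1. The dated pair went the other way on that scale, at 4.91 in deficient and 5.06 in sufficient. The fold change of Itgb8 depends on the pseudocount more than that of Itgav, at -1.86 and -1.42 with 0.1 TPM and -0.99 and -1.37 with 5 TPM.

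**Figure D1:**
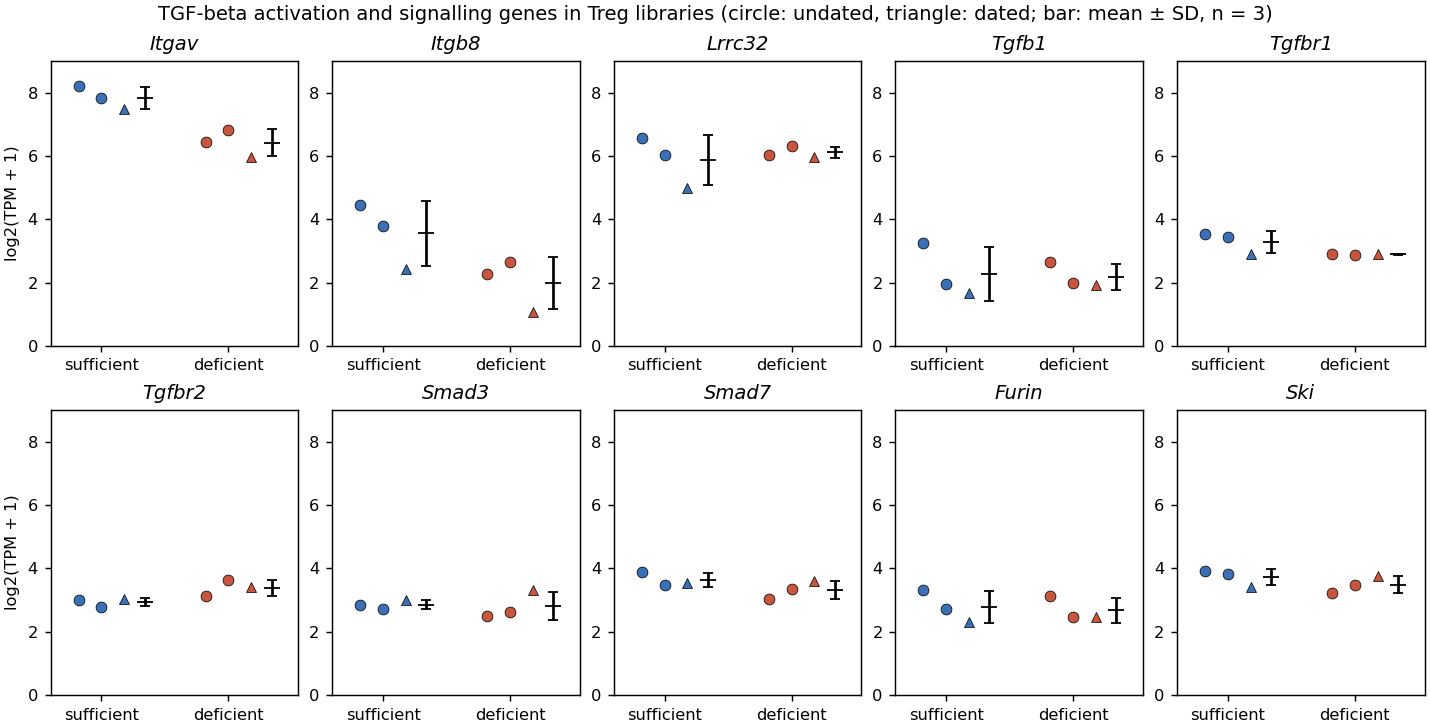
Level of each gene in log2(TPM + 1), 1 point per library (circles undated, triangles dated), with the group mean and SD (n = 3) as a black bar beside the points. Itgav separates the groups (7.48 or more in sufficient, 6.83 or less in deficient libraries), Itgb8 is lower within each date class, and Tgfbr2 is higher without overlap (3.12 to 3.63 against 2.78 to 3.03). The other 7 genes overlap between the groups.

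Of the other beta chains that can pair with alpha V, Itgb1 rose, and Itgb3 and Itgb5 had higher means that did not pass. Itgb1, whose product pairs with many alpha chains, rose from 5.58 ± 0.19 to 7.23 ± 0.11 (SD, n = 3 each). It stood at 5.37, 5.62 and 5.75 in sufficient A1, B1 and dated and at 7.13, 7.22 and 7.34 in deficient C1, D and dated. Its log2 fold change was 1.65 (adjusted p = 0.0221 in limma), with 0.00377 in the fit with the date block. The call was lost without sufficient A1 (adjusted p = 0.136), without sufficient B1 (0.113) and without deficient D (0.108), at fold changes of 1.54, 1.67 and 1.65. It was also lost without sufficient B1 and deficient C1 together (0.229), with no filter on low values (0.153), without a variance trend (0.0706) and with equal library medians (0.0563). Itgb3 had means of 3.52 ± 0.18 and 3.95 ± 0.24 and Itgb5 of 1.17 ± 0.30 and 1.58 ± 0.74 (SD, n = 3 each). The Itgb3 groups did not overlap (3.31 to 3.63 in sufficient, 3.69 to 4.17 in deficient libraries), as was so for 10.9% of all tested genes in that direction. Those of Itgb5 overlapped, and its difference between the dated libraries was -0.66. Itgb6 was listed at 0 in 5 of the 6 libraries. In sufficient libraries Itgav stood above each of these chains. In deficient libraries the mean of Itgb1 lay above that of Itgav, and the ranges of the 2 genes did not overlap.

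**Figure D2:**
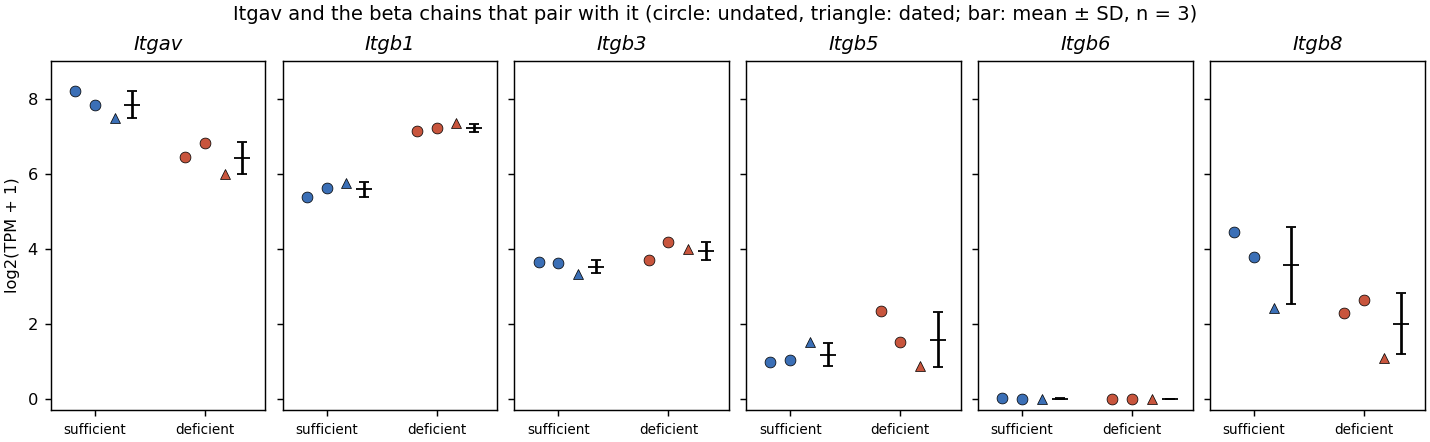
Level of Itgav and of the beta chains that can pair with it in log2(TPM + 1), 1 point per library (circles undated, triangles dated), with mean and SD (n = 3). Itgav and Itgb8 are lower in deficient libraries, Itgb1 is higher at 7.13 to 7.34 against 5.37 to 5.75, and Itgb6 is at or near 0.

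The anchor, the convertase and the ligand showed no difference beyond the spread between libraries. Lrrc32 (ENSMUSG00000090958.2, chromosome 7, 98489283 to 98502181, plus strand) stood at 6.56, 6.03 and 5.001 in sufficient A1, B1 and dated and at 6.04, 6.33 and 5.98 in deficient C1, D and dated. The sufficient dated library was the low one, and the remaining 5 lay between 5.98 and 6.56. The log2 fold change was 0.25 (95% interval -0.58 to 1.09, adjusted p = 0.83 in limma), and it was -0.18 without sufficient dated. The means of 62.9 ± 31.3 and 68.8 ± 9.16 TPM (SD, n = 3 each) place GARP transcripts well above those of the ligand it holds.

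Tgfb1 (ENSMUSG00000002603.15, chromosome 7, 25687002 to 25705077, plus strand) was the least abundant of the 10 genes in sufficient cells. It stood at 3.26, 1.94 and 1.66 in sufficient A1, B1 and dated and at 2.64, 1.98 and 1.91 in deficient C1, D and dated. Sufficient A1 and deficient C1 were high and the other 4 libraries lay within 1.66 to 1.98. The log2 fold change was -0.11 with a wide 95% interval of -1.16 to 0.95 (adjusted p = 0.946), and 0.38 without sufficient A1. Furin (ENSMUSG00000030530.15, chromosome 7, 80388585 to 80405436, minus strand) showed a like pattern, at 3.31, 2.72 and 2.29 in sufficient and 3.12, 2.45 and 2.45 in deficient libraries, in the same order. Its log2 fold change was -0.10 (95% interval -0.92 to 0.71, adjusted p = 0.931), and 0.17 without sufficient A1.

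Neither receptor transcript passed the test, and their differences had opposite signs. Tgfbr1, the type I chain that phosphorylates SMADs (ENSMUSG00000007613.15, chromosome 4, 47353222 to 47414931, plus strand), stood at 3.54, 3.44 and 2.90 in sufficient A1, B1 and dated and at 2.91, 2.87 and 2.91 in deficient C1, D and dated. The deficient libraries were nearly identical, at the level of sufficient dated. The log2 fold change of -0.40 (95% interval -1.01 to 0.21, adjusted p = 0.585) was -0.60 in the undated libraries and 0.0077 between the dated ones. Tgfbr2, the ligand-binding type II chain (ENSMUSG00000032440.13, chromosome 9, 116084293 to 116175360, minus strand), stood at 2.99, 2.78 and 3.03 in sufficient A1, B1 and dated and at 3.12, 3.63 and 3.41 in deficient C1, D and dated. All deficient libraries lay above all sufficient ones, though deficient C1 exceeded sufficient dated by little. Its log2 fold change was 0.45 (95% interval -0.13 to 1.03, adjusted p = 0.525), with 0.49 in the undated libraries and 0.39 between the dated ones.

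Smad3 and the brakes Smad7 and Ski did not pass either. Smad3 (ENSMUSG00000032402.12, chromosome 9, 63646767 to 63757994, minus strand) stood at 2.83, 2.72 and 3.00 in sufficient A1, B1 and dated and at 2.50, 2.63 and 3.32 in deficient C1, D and dated. Deficient libraries spread around the sufficient ones on both sides, and the log2 fold change was -0.04 (95% interval -0.73 to 0.66, adjusted p = 0.977). Smad7, itself a gene that TGF-beta switches on (ENSMUSG00000025880.11, chromosome 18, 75367529 to 75395935, plus strand), stood at 3.88, 3.48 and 3.54 in sufficient A1, B1 and dated and at 3.02, 3.34 and 3.59 in deficient C1, D and dated. Its log2 fold change was -0.32 (95% interval -0.91 to 0.27, adjusted p = 0.658). Ski (ENSMUSG00000029050.15, chromosome 4, 155154075 to 155222592, minus strand) stood at 3.91, 3.83 and 3.42 in sufficient and at 3.22, 3.47 and 3.76 in deficient libraries, in the same order, with a log2 fold change of -0.24 (95% interval -0.83 to 0.36, adjusted p = 0.758). For Smad7 and Ski the undated deficient libraries lay below the undated sufficient ones (-0.50 and -0.53), and the dated pair went the other way (0.045 and 0.34).

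Across the 10 genes, the direction held in both date classes for Itgav, Itgb8 and Tgfbr2 alone. The other 7 had negative differences in the undated libraries and positive ones between the dated libraries, which is 1 library per group, and whether these differed was not tested. The median log2 fold change of the 10 genes was -0.17, beside 0.09 for all tested genes, with 8 values negative and 2 positive. An unadjusted limma p under 0.05 was reached by 2 of the 10, Itgav and Itgb8, beside 11.7% of all tested genes. Groups did not overlap at 1 gene that was lower (Itgav), beside 6.73% of all genes, and at 1 that was higher (Tgfbr2), beside 10.9%. The non-overlapping shares of the 10 genes were close to those of all genes.

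**Figure D3:**
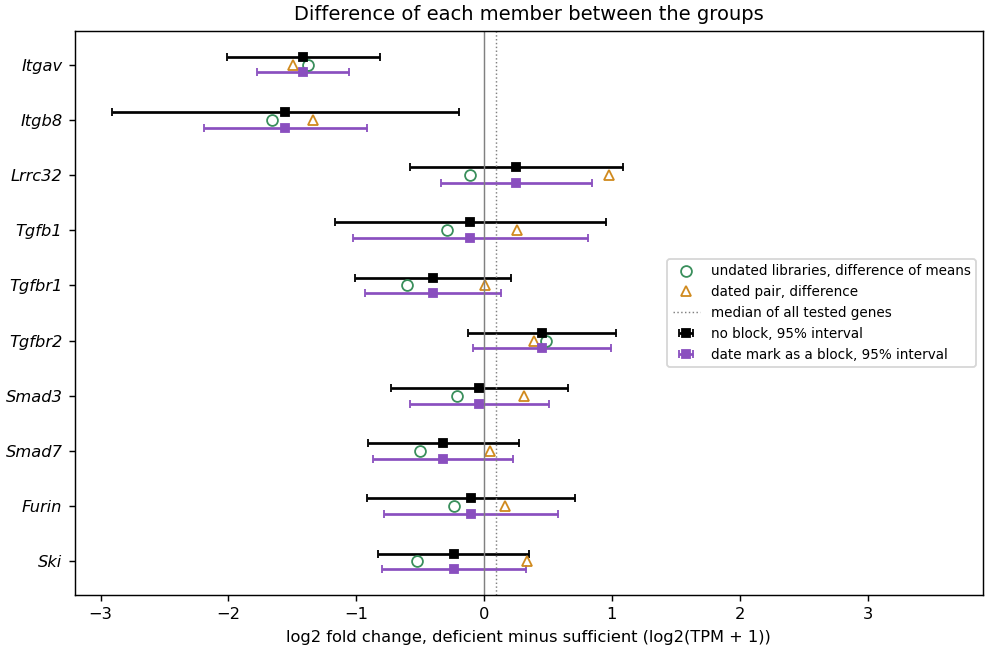
Log2 fold change of each gene, deficient minus sufficient, with 95% limma intervals without a block (black) and with the date mark as a block (purple), and the differences within undated libraries (circles) and in the dated pair (triangles). The intervals of Itgav and Itgb8 lie below 0 in both fits, whereas those of the other 8 genes span 0.

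The order of the mean levels differed between the groups at the integrin and at the receptors. In sufficient libraries the means ran from Itgav (7.83) and Lrrc32 (5.86) through Ski (3.72), Smad7 (3.64), Itgb8 (3.55), Tgfbr1 (3.29), Tgfbr2 (2.93), Smad3 (2.85) and Furin (2.78) to Tgfb1 (2.28). Itgav and Lrrc32 each stood clear of the gene below them in every library, while from Ski downwards each gene overlapped its neighbour. In deficient libraries the means ran from Itgav (6.42), Lrrc32 (6.12), Ski (3.48), Tgfbr2 (3.39), Smad7 (3.32), Tgfbr1 (2.89), Smad3 (2.81), Furin (2.67) and Tgfb1 (2.18) to Itgb8 (1.996). Itgav and Lrrc32 overlapped there. Itgav was the higher in deficient C1 and D, and both genes were nearly equal in deficient dated (5.983 and 5.982). Tgfbr2, below Tgfbr1 and Smad7 in mean in sufficient libraries, stood above both in mean in deficient ones. Its deficient values did not overlap those of Tgfbr1. In sufficient dated, Tgfbr2 (3.03) already stood above Tgfbr1 (2.90). Lrrc32 stood clear of Ski and Smad7 of Tgfbr1, and the other neighbours overlapped.

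Among 95 further genes of the pathway, 67 passed the filter and Itgb1 was the 1 that passed the comparison over all genes, beside 0.206% of all tested genes called. With the date block 4 of the 67 passed, 3 higher (Itgb1, Nrp1 and Id3) and 1 lower (Fasl), beside 1.97% of all tested genes. The median log2 fold change of the 67 was 0.07, beside 0.09 for all tested genes. Lists overlap in a few genes, and the 10 genes above are included in the counts that follow.

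Activators of latent TGF-beta included genes called in both directions with the date block, Itgb1 and Nrp1 higher and Itgav and Itgb8 lower. Of 12 listed genes 8 were tested, 5 with positive and 3 with negative values. Nrp1, a co-receptor on Treg cells that can bind latent TGF-beta, stood at 4.18, 4.22 and 4.30 in sufficient A1, B1 and dated and at 5.07, 5.59 and 5.33 in deficient C1, D and dated, without overlap. Its log2 fold change was 1.10 (adjusted p = 0.0959, and 0.0362 with the date block). The genes Itgb6, Thbs1, Mmp2 and Plau did not reach the filter.

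Ligands and the proteins that store them gave no call. Of 6 ligand genes 4 were tested, and Inhba, an activin chain, had the largest value at 1.24 (adjusted p = 0.6). It stood at 3.62 and 2.94 in deficient C1 and D but at 0.20 in deficient dated, against 1.69, 1.34 and 0.014 in sufficient A1, B1 and dated, so the dated library of each group was the low one. The value ran from 0.56 without deficient C1 to 2.27 without deficient dated. Tgfb3 had -0.30 (adjusted p = 0.756). Of 11 anchor, storage and convertase genes 5 were tested. Nrros, an anchor of latent TGF-beta related to GARP and known from myeloid cells, stood at 5.03, 4.65 and 4.27 in sufficient A1, B1 and dated and at 5.31, 5.24 and 5.18 in deficient C1, D and dated, without overlap but without passing (0.59, adjusted p = 0.364). Nrros was highest in deficient C1, the library with the most macrophage transcripts, and the part of those cells in its values was not tested. Pcsk7, another convertase, had 0.41 (adjusted p = 0.701), with 0.16 without sufficient dated and 0.71 without deficient dated.

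Receptors and SMAD proteins of the wider family gave no call either. Of 13 receptor genes 5 were tested, with Acvr2a, an activin receptor, at 0.80 (adjusted p = 0.405) and Bmpr1a, a bone morphogenetic protein receptor, at 0.36 (adjusted p = 0.658). Of 9 SMAD genes and SMAD adaptors 6 were tested. Smad2, the partner of Smad3 downstream of TGF-beta, was the most abundant at 4.83 ± 0.15 and 4.94 ± 0.07 (SD, n = 3 each), and its fold change of 0.11 turned negative under quantile normalization (-0.041) and with equal library medians (-0.029). Smad1, which serves bone morphogenetic protein receptors, had 1.01 (adjusted p = 0.338), with its highest value in deficient C1 (2.75).

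Regulators showed small differences on both sides. Of 17 negative regulators 16 were tested, 7 with positive and 9 with negative values and a median of -0.13. Wwp1, a ubiquitin ligase, had 0.77 (adjusted p = 0.348) and Pmepa1, a TGF-beta-induced inhibitor of SMAD phosphorylation, -0.71 (adjusted p = 0.428). Pmepa1 stood at 4.36, 4.09 and 3.45 in sufficient A1, B1 and dated and at 2.90, 3.36 and 3.50 in deficient C1, D and dated, a difference of -1.09 in the undated libraries and of 0.048 between the dated ones. Among 8 tested positive regulators (median -0.04), Usp15, a deubiquitinase of the receptor, had 0.40 and Crebbp, a SMAD coactivator, -0.64 (adjusted p = 0.342 and 0.344), both without overlap between the groups. The 8 genes of the non-SMAD branch had a median of -0.03, with Tab1 at 0.52 and Mapk14 at -0.23 (adjusted p = 0.597 and 0.729).

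Genes listed here as induced by TGF-beta, which need not hold in every cell type, had values on both sides. None passed over all 6 libraries without the block. Of 16 listed 13 were tested, 6 with positive and 7 with negative values, and the median was -0.10. Id3, which blocks E proteins, stood at 2.42, 2.63 and 3.30 in sufficient A1, B1 and dated and at 4.12, 4.15 and 4.42 in deficient C1, D and dated. Its fold change of 1.45 did not pass (adjusted p = 0.113) but did with the date block (0.0252). Cdkn2b, a cell cycle inhibitor, had 1.65 (adjusted p = 0.244, and 0.0587 with the block), with the highest value in deficient C1 (5.45). Id2, which like Id3 blocks E proteins, was lower, at 10.80, 10.80 and 9.79 in sufficient A1, B1 and dated and at 9.65, 10.07 and 9.45 in deficient C1, D and dated, and was named after its values were seen. Its fold change of -0.74 did not pass without or with the date block (adjusted p = 0.386 and 0.0709). With both dated libraries left out, Id2 and Id3 were called in opposite directions. These genes have many inputs besides TGF-beta.

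Genes that TGF-beta represses in T cells had values on both sides, and none passed without the block in all 6 libraries as scaled by the authors. Of 11 listed 9 were tested, 6 with negative and 3 with positive values, and the median was -0.49, beside 0.09 for all tested genes. It was -0.62 in the undated libraries and 0.09 between the dated ones. Fasl, a death ligand, stood at 6.73, 6.66 and 6.66 in sufficient A1, B1 and dated and at 5.20, 5.77 and 5.39 in deficient C1, D and dated. Its fold change was -1.23 (adjusted p = 0.0562, and 0.0234 with the date block), and it was also called after quantile normalization and without deficient dated. Ifng, the interferon gamma gene, had -1.50 (adjusted p = 0.218), also without overlap. Tbx21, named after its values were seen, had -0.69 (adjusted p = 0.3185) and was lower without overlap too. So 3 of the 9 were lower without overlap, beside 6.73% of all tested genes, and 0 were higher, beside 10.9%. The 3 positive values, named after they were seen, were 1.22 for Gzma, 0.81 for Myc and 0.48 for Gata3 (adjusted p = 0.563, 0.422 and 0.608), with overlapping groups. The lists were written with results of these data known, so their counts describe these libraries and are no independent evidence.

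**Figure D4:**
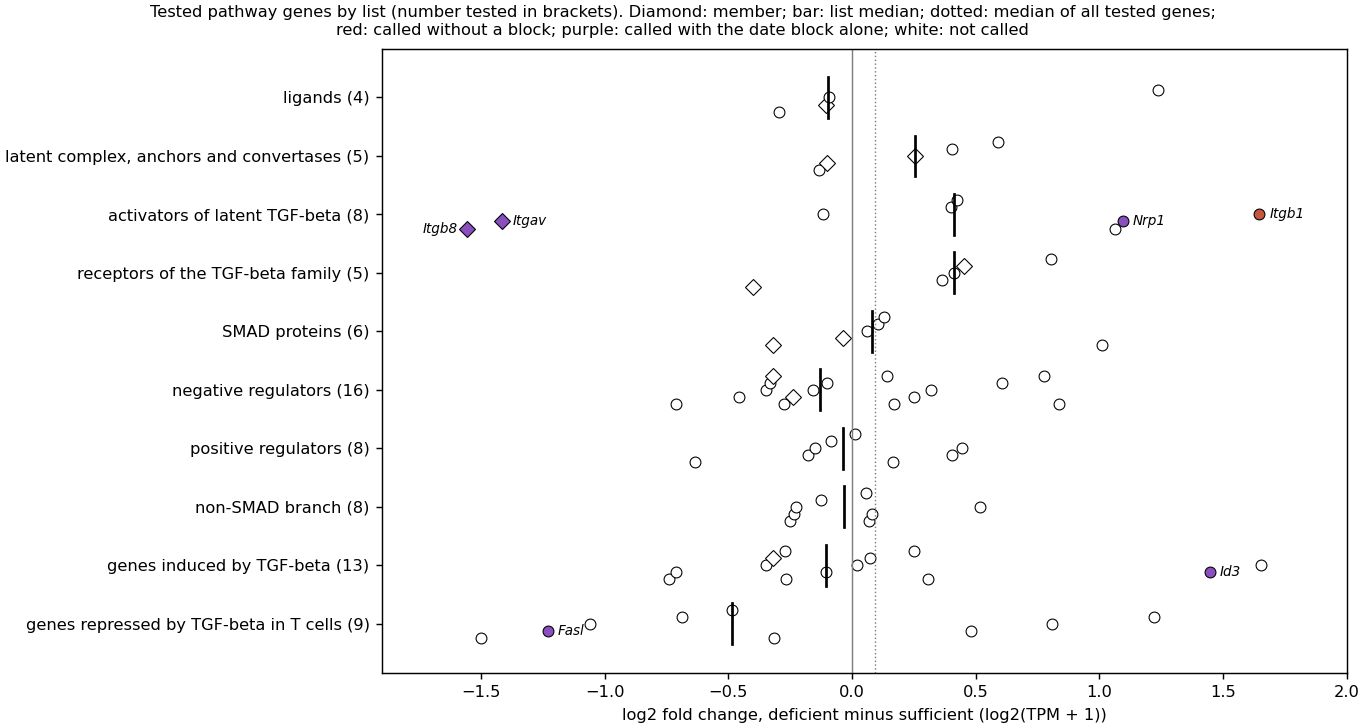
Log2 fold change of each tested pathway gene by list, with diamonds for the 10 genes, circles for further genes, black bars for list medians and a dotted line at the median of all tested genes. Itgb1 (red) was called without a block, Itgav, Itgb8, Nrp1, Id3 and Fasl (purple) with the date block alone, and the remaining genes were not called.

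The genes whose 6 values followed Itgb8 most closely were Nfat5 (Pearson's r = 0.997), Crlf2 (0.995) and Fnbp1 (0.992), with log2 fold changes of -0.70, -0.66 and -0.61 that did not pass (adjusted p = 0.456, 0.445 and 0.478). For Lrrc32 they were Inpp4b, Slc28a2 and Rtl8c, each at an r of 0.991. These are descriptions over 6 libraries among 10261 protein-coding genes, of which 236 reached an r of 0.9 with Itgb8 and 258 with Lrrc32, and the libraries share their date marks and unequal macrophage levels.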

How the data were processed

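The deposited table gives log2 values for 55450 genes in 6 libraries. Turned back into linear units less 1, a library totals 999999 to 1000001, which identifies the deposited log2 values as log2(TPM + 1). STAR, RSEM and limma, without versions, and the builds GRCm38 and mm10 are named in the submitters' processing notes. All identifiers matched GENCODE mouse release 21. Column names gave the group but no replicate number. Genes with a value of at least 1 in at least 3 libraries (12155) were compared on the deposited log2 scale with limma (lmFit, eBayes with a trend), without covariates, and called two-sided at 0.05 after Benjamini-Hochberg adjustment over all of them. Blocking on the date mark was an alternative, as were other filters, scalings, pseudocounts, variance models and leaving out libraries. Scripts were tested on simulated data. The pseudocount of 1 TPM understates the change of low genes, and TPM is a share of a total. Named further genes were, per pathway list, those past the threshold and the 2 of smallest p. Itgb3, Itgb5 and Itgb6 were added as partners of Itgav. The members, lists and date block were chosen with earlier results of these data known. The fits used limma 3.58.1 in R 4.3.3, and tables and plots used Python 3.11.15 with pandas 2.3.3 and matplotlib 3.10.9.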

Additional observations from a re-analysis of the deposited data

How the results depend on the processing

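Read depth is unknown, groups hold 3 libraries, and no counting interval could be given, which limits what can be said of low genes such as Tgfb1, Furin and Itgb8. The fold changes of Itgav and Itgb8 were negative under every alternative run. No paired analysis was possible because the column names do not carry the replicate numbers of the labels, and the date that 1 column of each group shares, used as a block, ties only those 2 libraries. Of the 12155 genes tested, 25 were called, 0 of the 10 pathway members and 1 of the 67 further pathway genes, in that order. These 3 counts were 240, 2 and 4 with dates blocked and 215, 1 and 4 without both dated libraries. At an adjusted p under 0.1 they were 90, 1 and 3. Quantile normalization called 38 genes and 2 further genes, no filter 1 and 0, and limma without a trend 4 and 0. Equal medians called 1 member and 0 further genes. Without the libraries highest in macrophage markers (sufficient B1 and deficient C1), which leaves 2 per group, limma's counts were 0, 0 and 0. Leaving out 1 library gave 0 (without sufficient B1 or deficient D), 2 (without sufficient A1), 11 (without deficient C1) or 24 (without sufficient dated) to 121 genes (without deficient dated) and 0 to 2 further genes. Of the members called with the block, chosen as a setting after the data were known, 1 was left with a pseudocount of 5 TPM and 1 without the libraries highest in macrophage markers, 0 without a trend, and 0 to 1 when an undated library was left out. The median log2 fold change of all genes was 0.09, and moved to 0.0027 under quantile normalization and -0.041 with equal medians. Signs turned for genes with small values. Smad2 had -0.041 under quantile normalization and -0.029 with equal medians, Lrrc32 -0.11 without both dated libraries, and Smad3 0.056 without the libraries highest in macrophage markers. Leaving out 1 library gave -0.18 to 0.60 for Lrrc32, -0.42 to 0.38 for Tgfb1, -0.29 to 0.12 for Smad3 and -0.35 to 0.17 for Furin, and, with no change of sign, -0.46 to -0.17 for Smad7 and -0.39 to -0.11 for Ski. With the block these ranges were -0.43 to 0.32 for Tgfb1, -0.024 to 0.050 for Smad3 and -0.26 to 0.13 for Furin. The cause of these changes was not tested. Leaving out libraries also leaves fewer residual degrees of freedom.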
